A study of Mus musculus with 8 samples.

Results

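Transcript levels of 4 interferon-induced antiviral genes were examined in NIH3T3 cells, an immortalised mouse fibroblast line of Swiss albino origin: the Mx GTPase genes Mx1 and Mx2, and the chromosome neighbours Rsad2 and Cmpk2. They were taken by symbol, and all 4 were found among the 23304 genes of the count tables. The 8 RNA-seq libraries form 4 labelled groups of 2. Cells labelled WT and cells labelled as a CRISPR knockout of Zmynd11 (KO) were taken either at 0 h with no agent or 2 h after interferon-beta (IFN-β, recombinant, mouse) was given at 100 units/ml. Zmynd11 encodes a chromatin reader of methylated histone H3.3. The source label names NIH3T3 while the extraction text speaks of embryonic fibroblasts, and no label gives a clone, batch or date. Nothing in the labels says that libraries of 1 group are separate cultures. The p-values therefore reflect the spread between libraries only, and this may be technical. In these bulk samples, fewer cells expressing a gene and less RNA of it per cell cannot be told apart.

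Type I interferons bind a receptor that activates the kinases Jak1 and Tyk2, and these lead to the assembly of ISGF3, a complex that holds Stat2 and Irf9 and binds the interferon-stimulated response element (ISRE) of target genes. Mx proteins are dynamin-like GTPases that assemble on viral components: mouse Mx1 is nuclear and acts against influenza-like viruses, and Mx2 is cytoplasmic and acts against viruses such as vesicular stomatitis virus. Many laboratory mouse strains carry defective Mx alleles. Rsad2 encodes viperin, a radical S-adenosylmethionine (SAM) enzyme that turns CTP into a chain-terminating nucleotide, and Cmpk2 encodes a mitochondrial nucleoside monophosphate kinase with CMP and UMP among its substrates. Rsad2 and Cmpk2 lie next to each other and are usually induced together in interferon-treated cells.

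The upstream sequences are shown for the Rsad2 and Cmpk2 pair because the genes differed in the libraries although they are neighbours on chromosome 12, on opposite strands. The 250 bases before the annotated start come from RefSeq on GRCm38.p6, at chr12:26456453-26456702 on the minus strand for Rsad2 and chr12:26468965-26469214 on the plus strand for Cmpk2. Each is written in the direction of its gene, and capitals mark a match to the ISRE core. Mx1 and Mx2 had no entry in this promoter table.

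Rsad2: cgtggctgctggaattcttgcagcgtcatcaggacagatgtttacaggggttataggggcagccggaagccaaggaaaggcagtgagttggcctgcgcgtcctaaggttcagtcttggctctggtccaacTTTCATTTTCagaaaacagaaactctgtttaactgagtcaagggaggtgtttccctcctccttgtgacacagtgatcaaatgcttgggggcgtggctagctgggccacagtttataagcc
Cmpk2: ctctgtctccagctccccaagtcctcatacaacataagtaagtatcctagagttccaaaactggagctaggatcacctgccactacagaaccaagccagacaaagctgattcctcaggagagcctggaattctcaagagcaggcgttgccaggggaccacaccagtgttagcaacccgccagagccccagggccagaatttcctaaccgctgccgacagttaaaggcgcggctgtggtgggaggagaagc

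The ISRE core was searched on both strands as GAAA, any 2 bases and GAAA again. The Rsad2 window held 1 match, on the reverse strand from base -120 to base -111, counted from the start, and the Cmpk2 window held none. A match was found in 2.98% of all 32851 windows of the same length in the table (978 windows). Among the genes of a list of other interferon-stimulated effectors, 7 of the 20 with a window held a match, as did 9 of 9 guanylate-binding and immunity-related GTPases. A listed gene was counted if any of its windows held a match, whereas the share of all windows counts each window, so the 2 measures differ. The gamma-activated sequence, searched as TTCNNNGAA, was found in 7.02% of all windows and in neither of these 2. The motif TATAAA was found in 12.4% of all windows and matched Rsad2 on the reverse strand from base -10 to base -5. These are matches of letters in 1 window and do not show that a factor bound there.

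**Figure D1:**
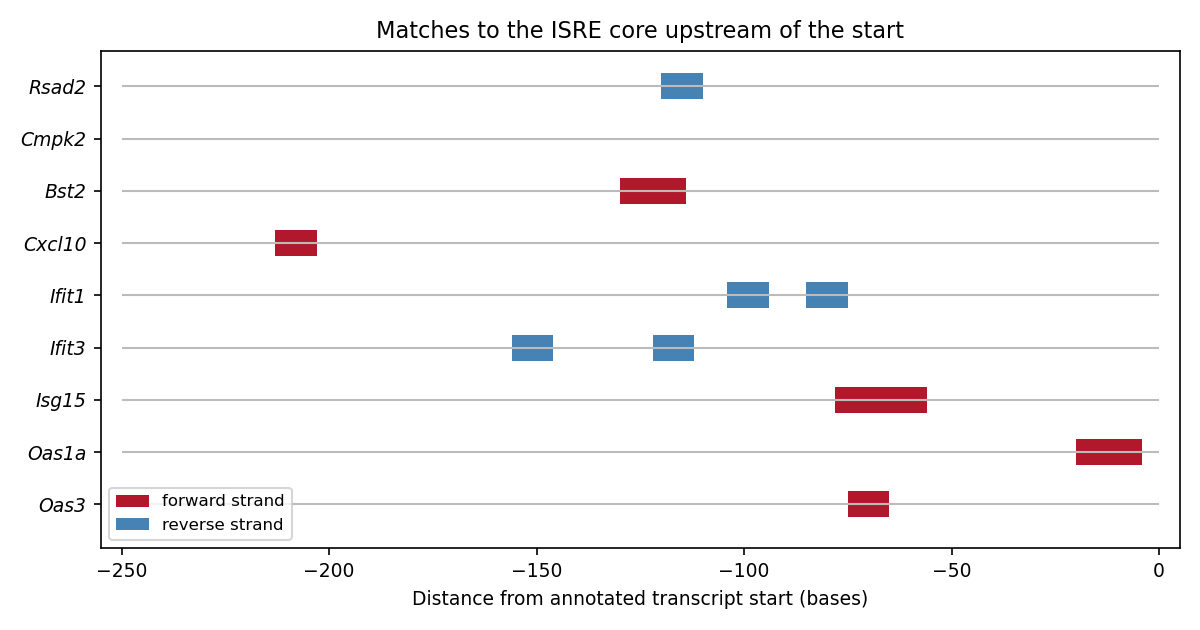
Positions of matches to the ISRE core (horizontal axis, bases from the annotated transcript start) in the 250-base windows of Rsad2, Cmpk2 and the 7 other interferon-stimulated effectors with a match; red bars are on the forward and blue bars on the reverse strand, and overlapping matches merge into 1 bar. Rsad2 has 1 match at -120 and the line of Cmpk2 is empty.

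The Mx1 and Mx2 transcripts are alike, which bears on how their reads can be told apart. In GENCODE M21 on GRCm38, the coding sequences of 1 coding transcript each of Mx1 (1881 bases) and Mx2 (1965 bases), on chromosome 16, were identical at 1482 of 1821 aligned bases (81.4%). Their longest exact shared run was 140 bases. Capitals mark it in the following stretches, with 30 bases on either side in lower case, from coding base 331 to 530 of Mx1 and from 412 to 611 of Mx2.

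Mx1: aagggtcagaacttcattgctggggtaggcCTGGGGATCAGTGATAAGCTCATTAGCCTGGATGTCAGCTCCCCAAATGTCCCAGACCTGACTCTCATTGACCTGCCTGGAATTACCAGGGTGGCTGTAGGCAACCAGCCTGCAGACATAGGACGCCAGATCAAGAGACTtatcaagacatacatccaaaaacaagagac
Mx2: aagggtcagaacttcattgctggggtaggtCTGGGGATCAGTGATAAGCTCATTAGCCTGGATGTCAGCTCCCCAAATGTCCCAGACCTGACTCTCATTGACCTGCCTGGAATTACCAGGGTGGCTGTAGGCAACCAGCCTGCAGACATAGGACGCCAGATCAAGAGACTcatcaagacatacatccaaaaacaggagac

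A fragment that lies wholly inside this run matches both genes, and reads mapping to several places stand in a summary line of the tables and not in a gene. Over all annotated transcripts, 4.37% of the 50-base words of Mx1 (180 of 4115) and 4.38% of those of Mx2 (159 of 3632) also occurred in a transcript of another gene. Rsad2 and Cmpk2 shared none of their 50-base words with another gene. The word length is arbitrary, since no source used here gives the read length. RefSeq on GRCm38.p6 lists Mx1 and Mx2 as transcribed pseudogenes, whereas GENCODE lists Mx1 as protein coding and Mx2 as a polymorphic pseudogene. The allele of these cells was not examined, since the counts are summed per gene.

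Gene reads summed to 13671013 to 21299120 per library, and levels are given as CPM (read counts scaled to a common, TMM-adjusted library size), so that 1 read is worth 0.0460 to 0.0700 CPM. The level of Zmynd11 goes against the genotype label of 2 groups: it stood at 120 to 137 CPM in all 4 libraries labelled 0 h and at 3.18 to 4.69 CPM in all 4 labelled 2 h, in WT and KO alike. The counts do not show which exon a read came from, and no source used here gives the edited site. Groups are named as labelled, and each direction is one between labels. The library labelled KO 0 h replicate 2 stood apart with reads for 17498 genes against 14847 to 15945 in the other 7, so the fitted fold changes of Mx1, Mx2 and Rsad2 that use it are also given without it. The summed level of 10 fibroblast markers was 18642 to 47427 CPM per library, lower in the libraries labelled 2 h. Of 11 leukocyte markers, the T cell marker Cd3e had no reads in any library. Lyz2 was the highest, with means of 20.5 CPM in WT 0 h, 33.5 in KO 0 h, 36.9 in WT 2 h and 40.3 in KO 2 h. The sum of the 11 was 38.3 to 38.8 CPM in WT 0 h, 49.3 and 77.0 in KO 0 h, 57.2 to 59.0 in WT 2 h and 43.2 and 80.1 in KO 2 h. The part of such cells in the results was not tested.

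Mx2 had the highest counts of the 4 genes. It had 4 and 0 reads in the WT 0 h libraries (0.195 and 0 CPM) and 3 and 8 reads in WT 2 h (0.162 and 0.445 CPM). It had 614 and 567 reads in KO 0 h (33.9 and 37.9 CPM) and 1271 and 642 reads in KO 2 h (58.4 and 45.0 CPM). All 4 libraries labelled KO were far above all 4 labelled WT, and the KO 2 h libraries were above the KO 0 h libraries. The WT 0 h and WT 2 h libraries overlapped.

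Mx1 was divided in the same way at a lower level. It had 1 and 2 reads in WT 0 h (0.0489 and 0.0983 CPM), 1 and 3 reads in WT 2 h (0.0540 and 0.167 CPM), 74 and 84 reads in KO 0 h (4.08 and 5.61 CPM) and 65 and 34 reads in KO 2 h (2.99 and 2.38 CPM). The order of the KO groups was the opposite of that of Mx2, since both KO 2 h libraries were below both KO 0 h libraries. The WT groups overlapped.

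Rsad2 was detected at few reads. It had 2 and 2 reads in WT 0 h (0.0977 and 0.0983 CPM), 2 and 3 in WT 2 h (0.108 and 0.167 CPM), 22 and 5 in KO 0 h (1.21 and 0.334 CPM) and 81 and 39 in KO 2 h (3.72 and 2.73 CPM). The KO 2 h libraries were the highest and did not overlap with any other group. The KO 0 h libraries were above all WT libraries but differed from each other by a factor of 3.63, with a 95% exact counting interval of 1.34 to 12.3. The WT 2 h values lay above those of WT 0 h by less than the worth of 2 reads.

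Cmpk2 had between 0 and 9 reads in every library. The counts were 1 and 4 in WT 0 h, 2 and 2 in KO 0 h, 4 and 2 in WT 2 h, and 0 and 9 in KO 2 h. In CPM this is 0.0489 and 0.197, 0.110 and 0.134, 0.216 and 0.111, and 0 and 0.630 in the same order. All neighbouring groups in the order of the means overlapped. The 0 reads of KO 2 h replicate 1 have an exact 95% Poisson upper bound of 0.170 CPM, while replicate 2 held 9 reads.

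**Figure D2:**
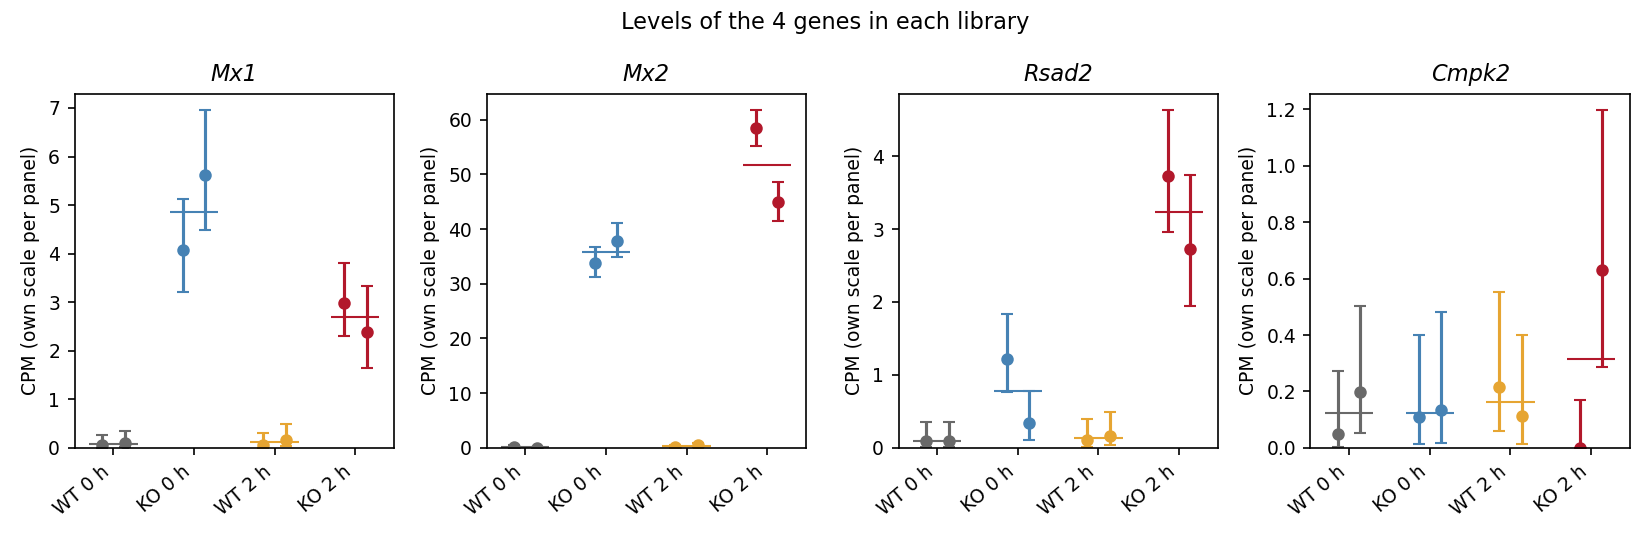
CPM (vertical axes, a separate scale from 0 in each panel) of Mx1, Mx2, Rsad2 and Cmpk2 in the 8 libraries by labelled group (horizontal axes), replicate 1 on the left; bars are exact 95% Poisson intervals of the read count and horizontal lines are means of 2 libraries. Mx2 reaches 58.4 CPM in KO 2 h, and Cmpk2 stays at 0.630 CPM or less.

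Levels of different genes were compared per kilobase of annotated exons (GENCODE M21), at 3.785 kb for Mx1, 3.614 for Mx2, 4.335 for Rsad2 and 4.163 for Cmpk2. These lengths come from another build than the counts. In KO 0 h the levels per kilobase were 9.93 ± 0.784 CPM for Mx2, 1.28 ± 0.286 for Mx1, 0.179 ± 0.144 for Rsad2 and 0.0293 ± 0.00395 for Cmpk2 (mean ± SD, n = 2 each). In KO 2 h they were 14.3 ± 2.63 for Mx2, 0.709 ± 0.113 for Mx1, 0.744 ± 0.162 for Rsad2 and 0.0757 ± 0.107 for Cmpk2. Mx1 and Rsad2 overlapped in KO 2 h, whereas the libraries did not overlap between any other pair of genes in these 2 groups. In the WT groups the 4 genes lay between 0 and 0.123 CPM per kilobase, and at such counts no order was detectable.

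The balance within each gene pair does not depend on how libraries are scaled. Mx1 made up 10.8% (95% exact binomial interval 8.54 to 13.3%) and 12.9% (10.4 to 15.7%) of the reads of both Mx genes in the KO 0 h libraries. It made up 4.87% (3.77 to 6.16%) and 5.03% (3.51 to 6.96%) in KO 2 h. The intervals, which cover counting error only, did not overlap between KO 0 h and KO 2 h and did overlap within each group. With 2 libraries in each group, a two-sided exact permutation test cannot go below p = 0.333, so none is given. In the WT groups 2 to 11 reads of both genes were found per library, which is too few to give a share.

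Rsad2 made up 91.7% (95% exact binomial interval 73.0 to 99.0%) and 71.4% (29.0 to 96.3%) of the reads of Rsad2 and Cmpk2 in KO 0 h. In KO 2 h its share was 100% (95.5 to 100%) and 81.3% (67.4 to 91.1%). These last 2 intervals did not overlap although they belong to 1 group, through the 0 and 9 reads of Cmpk2. Over each WT group as a whole, 4 of 9 reads at 0 h and 5 of 11 reads at 2 h were of Rsad2.

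**Figure D3:**
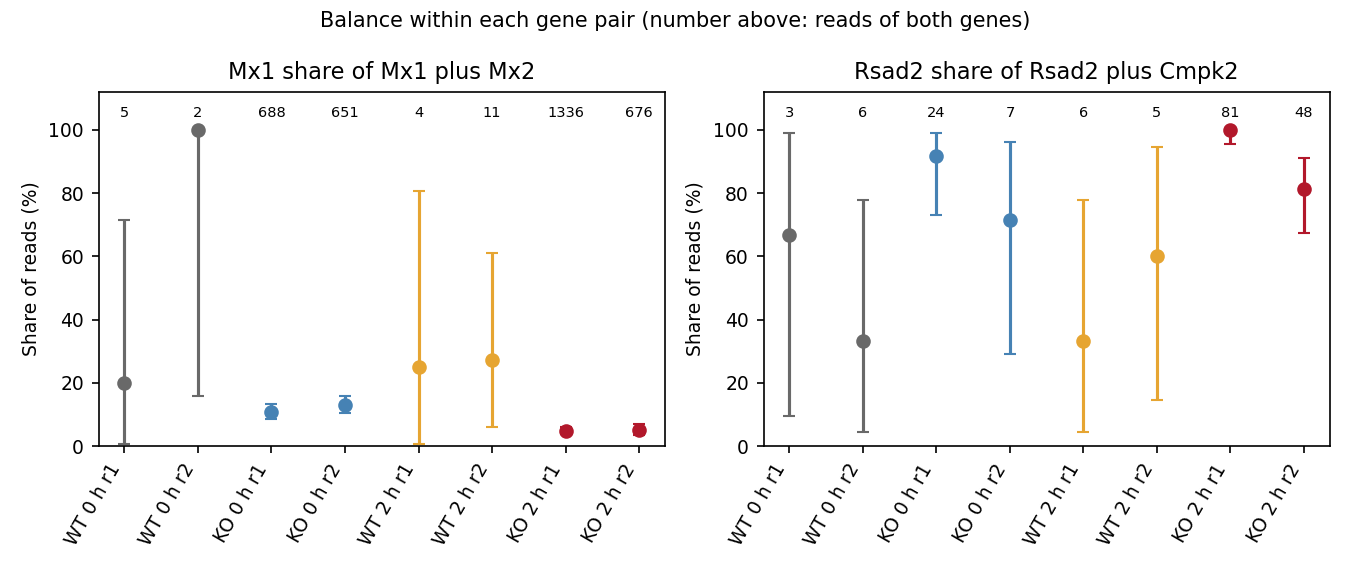
Share of reads (vertical axes, percent) taken by Mx1 among Mx1 and Mx2 reads (left) and by Rsad2 among Rsad2 and Cmpk2 reads (right) in each library (horizontal axes), with exact 95% binomial intervals and the number of reads of both genes above. Mx1 shares are 10.8 and 12.9% in KO 0 h and 4.87 and 5.03% in KO 2 h.

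Differences were tested with edgeR's quasi-likelihood test on all 12807 genes that passed a filter on low counts, with Benjamini-Hochberg adjustment over all of them and a call at an adjusted p below 0.05. Mx1, Mx2 and Rsad2 passed this filter and Cmpk2 did not. These 3 genes had enough reads only in the KO groups. The comparisons of KO with WT therefore had to show a difference in 1 direction if they showed any. The number of genes called there is no support for it. Rsad2 passed the filter mainly through KO 2 h, since KO 0 h had only 22 and 5 reads of it. The same limit therefore holds for Rsad2 in KO 2 h against KO 0 h. The comparisons share libraries and are given side by side.

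The first comparison sets KO 0 h against WT 0 h, by label the knockout in cells that had no IFN-β. Mx2 was higher in KO 0 h, at 35.9 ± 2.83 against 0.0977 ± 0.138 CPM (mean ± SD, n = 2 each), with a log2 fold change of 8.42 (SE 0.33, edgeR adjusted p = 1.10e-14). Fitted fold changes against so few WT reads depend on the small count added in the fit, so ratios of summed reads, scaled for library size, are given too. For Mx2 the ratio was 364 (95% exact interval 142 to 1339, 1181 against 4 reads). For Mx1 the ratio was 65.0 (95% exact interval 21.8 to 318, 158 against 3 reads) and the log2 fold change 5.91 (SE 0.57, edgeR adjusted p = 9.13e-08). For Rsad2 the ratio was 8.33 (2.90 to 32.8, 27 against 4 reads) and the log2 fold change 2.95 (SE 0.80, edgeR adjusted p = 0.0411). Cmpk2, with 4 against 5 reads, had a ratio of 0.987 (0.196 to 4.59). Of all genes tested, 3.92% were called here, 2.65% higher and 1.27% lower, and of the 4 genes Mx1, Mx2 and Rsad2 were called higher.

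The call of Rsad2 was lost without either WT 0 h library (adjusted p = 0.259 without replicate 1 and 0.231 without replicate 2) and without KO 0 h replicate 1 (0.345, log2 fold change 1.66). It was also lost without WT 2 h replicate 1 (0.0615), WT 2 h replicate 2 (0.0622) or KO 2 h replicate 1 (0.0530), and with the replicate number as a block (0.0509, log2 fold change 2.88). Without KO 0 h replicate 2 the log2 fold changes were 5.66 for Mx1, 8.33 for Mx2 and 3.54 for Rsad2, and all 3 were called. The call of Mx2 held without either WT 0 h library, but its log2 fold change was 12.32 without replicate 1, which leaves WT 0 h with no read of it, and 7.44 without replicate 2.

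The second comparison sets KO 2 h against WT 2 h, by label the knockout in cells given IFN-β. Mx2 stood at 51.7 ± 9.51 against 0.303 ± 0.200 CPM, a ratio of summed reads of 176 (95% exact interval 98.3 to 354) and a log2 fold change of 7.40 (SE 0.28, edgeR adjusted p = 3.90e-15). Mx1 stood at 2.68 ± 0.429 against 0.110 ± 0.0797 CPM, with a ratio of 25.1 (9.50 to 93.9). Rsad2 stood at 3.23 ± 0.701 against 0.137 ± 0.0416 CPM, with a ratio of 24.3 (10.1 to 76.3) and a log2 fold change of 4.51 (SE 0.64, edgeR adjusted p = 4.69e-05). The ratio of Cmpk2 was 1.52 (0.483 to 5.19, 9 against 6 reads). Mx1, Mx2 and Rsad2 were called higher, where 1.60% of all genes were called, 1.59% higher and 0.00781% lower, and these calls held in all 15 alternatives run. Without WT 2 h replicate 1 the log2 fold change of Mx1 was 3.96, and without replicate 2 it was 5.48 for Mx1 and 8.26 for Mx2.

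Comparing 2 h with 0 h within the KO labels, the 3 genes moved in different ways. Mx2 rose from 35.9 ± 2.83 to 51.7 ± 9.51 CPM (log2 fold change 0.53, SE 0.14, edgeR adjusted p = 0.00281). Rsad2 rose from 0.774 ± 0.622 to 3.23 ± 0.701 CPM (log2 fold change 2.01, SE 0.48, edgeR adjusted p = 0.000949). Mx1 fell from 4.85 ± 1.08 to 2.68 ± 0.429 CPM (log2 fold change -0.83, SE 0.33, edgeR adjusted p = 0.0351). The ratios of summed reads were 1.49 (95% exact interval 1.38 to 1.60) for Mx2, 4.08 (2.67 to 6.45) for Rsad2 and 0.575 (0.443 to 0.744) for Mx1. Cmpk2 gave 2.07 (0.577 to 9.18, 9 against 4 reads), where all 9 reads were in 1 library. With 61.1% of all genes called in this comparison, 30.0% higher and 31.2% lower, a call of 3 of 3 tested genes says little about them.

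The call of Rsad2 held in 15 of 15 alternatives, with a log2 fold change of 1.42 without KO 0 h replicate 2 and 3.29 without KO 0 h replicate 1. That of Mx2 was lost without KO 2 h replicate 1 (0.35, adjusted p = 0.0733) and held without KO 0 h replicate 2 (0.61). That of Mx1 was lost without KO 0 h replicate 2 (-0.59, adjusted p = 0.232), KO 2 h replicate 1 (0.0659) or KO 2 h replicate 2 (0.156), with DESeq2 (0.0889) and with library size alone as the scale (0.0833), while its direction held in all 15.

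Within the WT labels, none of the 3 tested genes was called between 2 h and 0 h by edgeR, where 61.2% of all genes were (30.1% higher and 31.1% lower), nor by DESeq2, and none had an unadjusted p under 0.05. Mx2 stood at 0.0977 ± 0.138 CPM at 0 h and 0.303 ± 0.200 CPM at 2 h (log2 fold change 1.56, SE 0.91, edgeR adjusted p = 0.144). Without WT 0 h replicate 1 the remaining WT 0 h library had 0 reads of Mx2 and the call passed (5.47, adjusted p = 0.0132), and the log2 fold change was 0.60 to 2.14 without any 1 of the other 3 WT libraries. The ratios of summed reads were 3.07 (95% exact interval 0.911 to 13.2) for Mx2, 1.49 (0.252 to 10.2, 4 against 3 reads) for Mx1, 1.40 (0.301 to 7.04) for Rsad2 and 1.34 (0.341 to 5.55) for Cmpk2. At this depth a change of several fold could not be detected between the WT labels. These 2 groups also differed in Zmynd11, at 122 ± 1.62 CPM in WT 0 h and 3.40 ± 0.303 CPM in WT 2 h. The comparison is therefore one between labels, and may not be one of IFN-β in WT cells.

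Across the diagonal, KO 2 h against WT 0 h gave log2 fold changes of 8.95 (SE 0.32) for Mx2, 5.08 (SE 0.60) for Mx1 and 4.96 (SE 0.66) for Rsad2, and each was called. Of all genes, 62.3% were called there, 30.8% higher and 31.4% lower. KO 0 h against WT 2 h, the 2 groups whose Zmynd11 level goes against the label, gave 6.86 (SE 0.29), 5.38 (SE 0.55) and 2.49 (SE 0.77), called as well, where 60.3% of all genes were, 31.5% higher and 28.8% lower. The call of Rsad2 in the latter was lost without KO 0 h replicate 1 (1.22, adjusted p = 0.335) and without WT 2 h replicate 1 (2.18, adjusted p = 0.0747). Without KO 0 h replicate 2 the values of KO 0 h against WT 2 h were 6.78 for Mx2, 5.14 for Mx1 and 3.09 for Rsad2. Without WT 2 h replicate 1 they were 6.27 for Mx2 and 4.76 for Mx1, and without WT 2 h replicate 2 they were 7.70 and 6.28. For KO 2 h against WT 0 h, Mx2 gave 12.87 without WT 0 h replicate 1 and 7.99 without replicate 2. The calls of Mx1 and Mx2 held in each of these.

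The interaction, KO 2 h and WT 0 h against KO 0 h and WT 2 h on the log2 scale, asks whether the change from 0 h to 2 h differs between the genotype labels. Exchanging the labels of KO 0 h and WT 2 h would leave its value as it is. It was -1.02 (SE 0.91, edgeR adjusted p = 0.667) for Mx2, -1.37 (SE 1.20, edgeR adjusted p = 0.660) for Mx1 and 1.56 (SE 1.33, edgeR adjusted p = 0.652) for Rsad2. None of the 3 was called by edgeR and none had an unadjusted p under 0.05, and DESeq2 called neither Mx gene and gave no adjusted p for Rsad2. Of all genes, 0.133% were called, 0.0547% higher and 0.0781% lower. WT levels rest on 3 to 11 reads in a group, and the values moved with single libraries. Mx2 gave -4.93 without WT 0 h replicate 1, -0.05 without WT 0 h replicate 2 and -0.16 without WT 2 h replicate 2, and Mx1 gave -0.43 without WT 2 h replicate 2. Rsad2 gave 2.84 without KO 0 h replicate 1 and 0.97 without KO 0 h replicate 2, where Mx1 gave -1.12 and Mx2 -0.93.

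**Figure D4:**
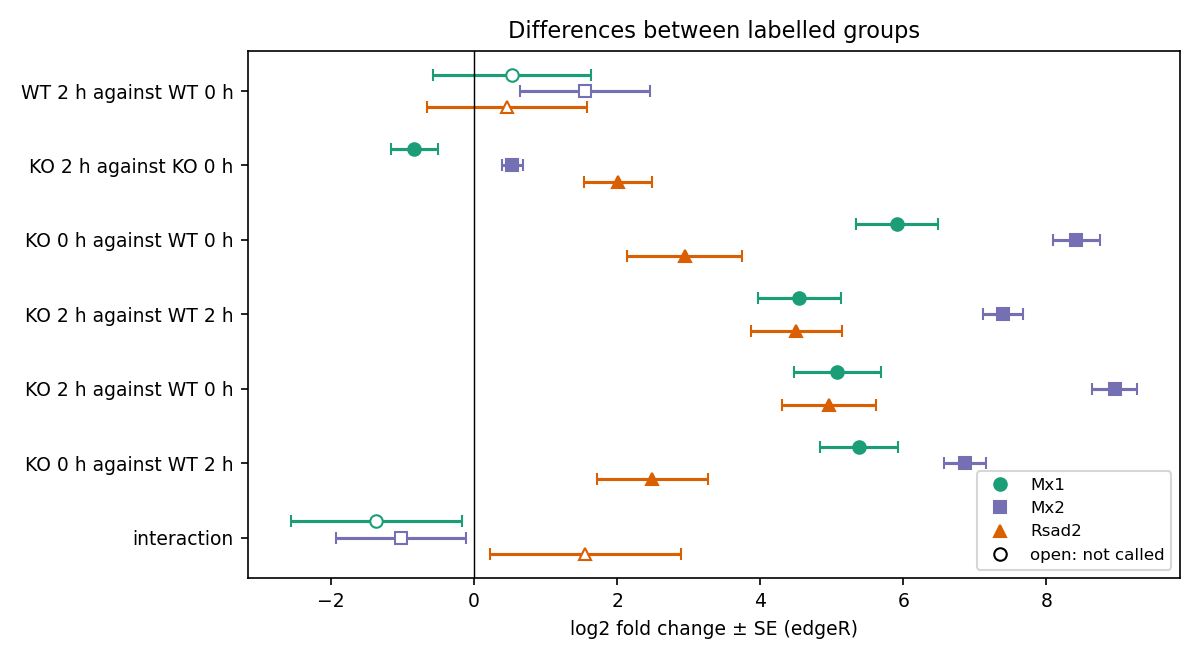
Log2 fold changes (horizontal axis, bars are standard errors from the edgeR model) of Mx1, Mx2 and Rsad2 in the 6 comparisons of labelled groups and in the interaction (vertical axis); open symbols did not pass an adjusted p of 0.05. KO 2 h against KO 0 h is the comparison in which Mx1 is below 0 (-0.83) while Mx2 (0.53) and Rsad2 (2.01) are above it.

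Without a filter on low counts, Cmpk2 was tested among 19556 genes and was not called in any of the 7 comparisons by edgeR (adjusted p 0.593 to 1), and none had an unadjusted p under 0.05. It also passed the filter in 7 fits that left out 1 library, and the lowest adjusted p over all of these was 0.103. The other genes next to the members, by order in RefSeq on GRCm38.p6, had almost no reads: Rnf144a, beside Rsad2, had 2 reads in all 8 libraries together, and Fam3b, between Mx1 and Mx2, had 18.

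The genes whose profile over the 8 libraries was nearest to each member were found by the root mean square difference of log2 CPM, each gene centred on its mean. For Mx1 these were Oasl2, an oligoadenylate synthetase-like protein, at 0.256, then Rtp4, Isg15, Apol9a and Gm4841 at up to 0.561. Oasl2 stood at 1.13 CPM in WT 0 h, 41.5 in KO 0 h, 1.76 in WT 2 h and 29.5 in KO 2 h. For Mx2 the nearest was Ifit1, which binds foreign RNA, at 0.445 (1.30, 213, 2.84 and 388 CPM in the same order), then Iigp1, Irgm2, I830012O16Rik and Igtp at up to 0.969. For Rsad2 it was Oas3, a synthetase of 2-5A, at 0.482 (0.858, 2.66, 0.851 and 14.8 CPM), then Tor3a, Helz2, Gm6034 and Parp9 at up to 0.710. The distances between members were 1.36 for Mx1 and Rsad2, 1.72 for Mx1 and Mx2 and 2.42 for Mx2 and Rsad2. Any gene outside the 5 nearest is farther by selection, so these values do not show that the members are unusually unlike. These distances include differences in depth and in the amplitude of the change.

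**Figure D5:**
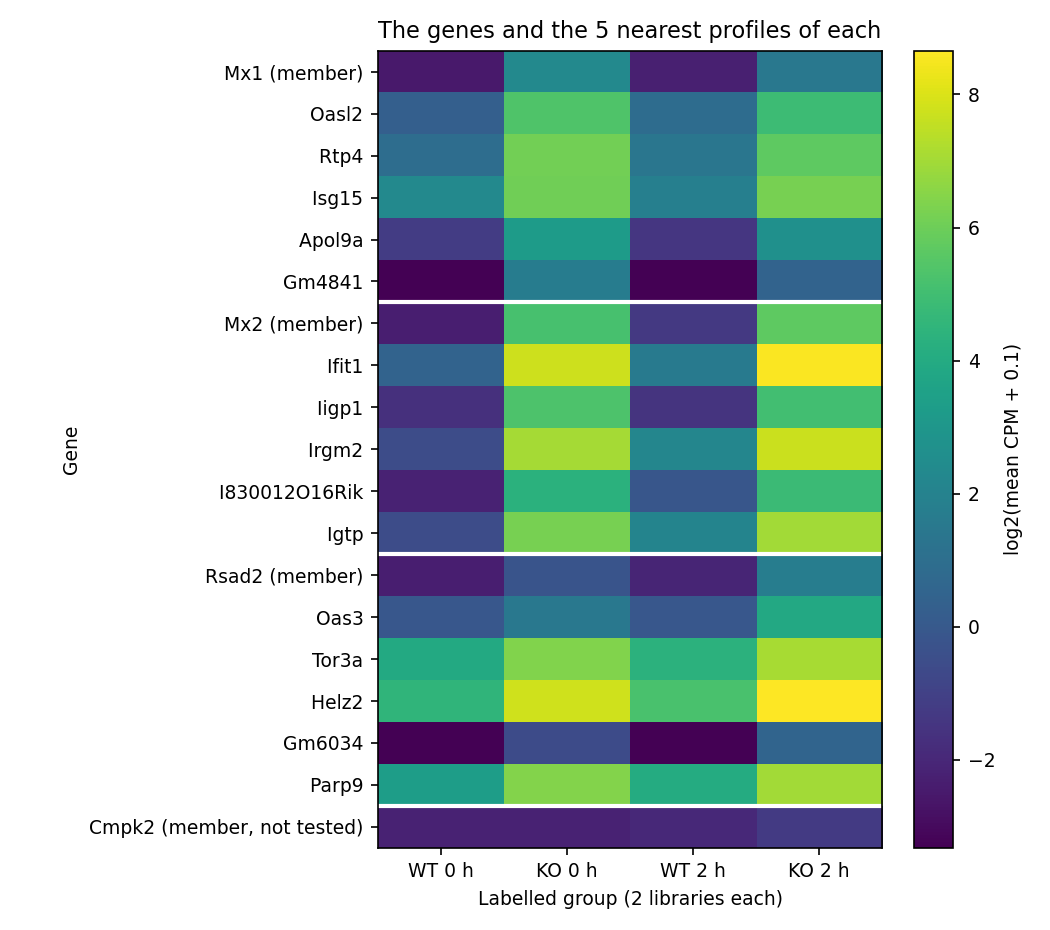
Log2 of mean CPM plus 0.1 (colour) in the 4 labelled groups (columns, 2 libraries each) for the members and the 5 genes nearest in profile to Mx1, Mx2 and Rsad2 (rows). The rows of Mx1 and Oasl2 are brighter in KO 0 h than in KO 2 h, those of Rsad2 and Oas3 are brightest in KO 2 h, and that of Cmpk2 stays dark.

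The genes that carry the interferon signal were read in the same libraries. Stat2 (log2 fold change 3.93, SE 0.10) and Irf9 (3.17, SE 0.12) were called higher in KO 0 h than in WT 0 h. From KO 0 h to KO 2 h, Stat2 rose (0.57, SE 0.08) and Irf9 rose (0.33, SE 0.10). Of 26 other effectors 25 were tested. In KO 0 h against WT 0 h, 24 were higher and none lower (median 3.11, against 0.01 over all genes). Over all genes tested, 2.65% were called higher there and 1.27% lower. Some effectors had few reads under both WT labels, such as Oas2 (0.269 CPM at 0 h and 0.522 at 2 h) and Oasl1 (0.221 and 0.355). Others, such as Trim25 (103 and 105), did not. Those with few WT reads passed the filter through the KO groups and could only be called higher, so their calls are no support. In KO 2 h against KO 0 h, 11 of the 25 effectors were higher and 9 lower (median 0.18, against -0.01 over all genes), where 30.0% of all genes were called higher and 31.2% lower. Oas1a (2.70, SE 0.22) and Oas3 (2.46, SE 0.23) rose, as Rsad2 did, while Ifi44 (-4.06, SE 0.19), Oasl1 (-3.17, SE 0.40), Cxcl10 (-1.98, SE 0.22) and Oasl2 (-0.49, SE 0.13) fell, as Mx1 did. Of 8 brakes on interferon signalling, Usp18 (6.98, SE 0.19), which is also among the effectors, and Socs1 (0.71, SE 0.20) were higher in KO 0 h than in WT 0 h. In the interaction, Oas3 was called higher (2.48, SE 0.47, edgeR adjusted p = 0.0216), while the effectors Usp18 (-1.82, SE 0.33) and Parp14 (-1.13, SE 0.19) were called lower. Of 13 tested guanylate-binding and immunity-related GTPases, 10 were higher and 1 lower in KO 2 h against KO 0 h (median 0.70). For the interaction, 5 of these 13 were called lower and none higher (median -1.98). Over all genes tested, 0.0781% were called lower in it and 0.0547% higher. The 9 type I interferon genes listed had 22 reads over all 8 libraries, 9 of them in KO 0 h replicate 2.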

How the data were processed

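RNA was sequenced in 8 libraries. The authors deposited 1 table of raw read counts per gene symbol for each library. The mm9 build, HTSeq, STAR 2.5.2b and bcl2fastq 2.15 are named per the submitters' processing notes. Their roles, the annotation and the strandedness were not given in the sources used here. The summary lines for unmapped, multiply mapped, unassigned and ambiguous reads, 36.9 to 43.2% of all reads, were left out of library sizes. Without strand, a gene's reads may include those of an overlapping or antisense gene. Tests used edgeR 4.0.16 under R 4.3.3: filterByExpr (minimum count 10, minimum total 15), TMM scaling and 1 robust quasi-likelihood model over the 4 labelled groups (4 residual degrees of freedom, biological coefficient of variation 6.74%). DESeq2 1.42.0, other scalings and filters, fits of only the libraries compared, a replicate block and leaving out each library were alternatives. A library left alone in its group was taken to vary as the other groups do.

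The genes named are the members, Zmynd11, up to 4 genes of each list with the largest changes or closest to a member's pattern, the 5 nearest profiles of each member and the nearest genes on the chromosome. Members and lists were chosen with earlier results of these data known; Cxcl10, Oasl2, Socs1, Cmpk1, Ctps, Ctps2, Ifih1 and Ddx58 were named after their values were seen, as were the effectors and brakes named in the interaction. Some of what the rule names is not reported here. The model was tested on simulated data. Intervals of counts cover counting error only.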

Additional observations from a re-analysis of the deposited data

How the results depend on the processing

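The number of the 4 genes called in a comparison stayed within 1.5 times its value in 102 of 104 alternatives. This limit is coarse, because a fall from 3 called genes to 2 lies within it. Such falls occurred in KO 0 h against WT 0 h, KO 2 h against KO 0 h and KO 0 h against WT 2 h. Leaving out 1 library each gave 0 to 1 called genes for WT 2 h against WT 0 h and 1 to 3 for KO 2 h against KO 0 h. The highest of the former came without WT 0 h replicate 1, and the lowest of the latter without KO 2 h replicate 1. Of 306 log2 fold changes recomputed, 1 changed sign: Mx1 in WT 2 h against WT 0 h, not called, was -0.37 without WT 2 h replicate 2, in a range of -0.37 to 1.15 when a library was left out. The mean level of Rsad2 in WT 0 h moved from 0.0980 to 0.0939 CPM with library size alone, more than the spread of its 2 libraries. That scale moved the median of all genes by 0.14 in WT and 0.15 in KO for 2 h against 0 h on the log2 scale.

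The number of all genes called depended on the setting in 2 comparisons. For KO 0 h against WT 0 h it was 502, and it was 809 without a filter, 322 with the replicate block and 174 to 1073 when a library was left out (174 without WT 0 h replicate 1, 191 without WT 0 h replicate 2 and 1073 without KO 0 h replicate 1). For the interaction it was 17, and 113 without a filter, 33 with DESeq2 and 6 to 91 when a library was left out. The cause was not tested. No label says whether same-numbered replicates were handled together. The deviations of their libraries from the group means correlated at -0.05 to -0.01 across genes for all 6 pairs of groups. Such correlations cannot show whether the libraries were handled together. The replicate block ended 1 call of a member, Rsad2 in KO 0 h against WT 0 h (adjusted p = 0.0509). The 3 to 11 reads of each member in a WT group limit what could be seen there. Rsad2 could not be tested in fits of only the KO 0 h and WT 0 h libraries or only the KO 0 h and WT 2 h libraries, where it did not pass the filter.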

Other observations

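Relatives of the members by enzyme activity were counted in the same comparisons. Of 14 other dynamin-family and membrane GTPases none was called in KO 0 h against WT 0 h or KO 2 h against WT 2 h. Of 19 nucleotide kinases and enzymes of pyrimidine supply none was either. Over all genes tested, 3.92% were called in KO 0 h against WT 0 h and 1.60% in KO 2 h against WT 2 h. At such shares, the lack of a call in lists this short says little about them. Of 16 other radical SAM enzymes and factors of cytosolic iron-sulfur assembly, Ndor1 was lower in KO 0 h than in WT 0 h (a log2 fold change of -0.40 with SE 0.11 and an edgeR adjusted p = 0.0409), and none was called in KO 2 h against WT 2 h. Between the time labels, 11 of the 19 nucleotide enzymes were lower and 1 higher in WT 2 h against WT 0 h, and 12 were lower and 1 higher in KO 2 h against KO 0 h. Of all genes tested, 31.1% were called lower and 30.1% higher in the former comparison, and 31.2% lower and 30.0% higher in the latter. On the log2 scale, the thymidine kinase Tk1 fell by 1.36 (SE 0.09) and 1.29 (SE 0.09) in these comparisons, and the thymidylate kinase Dtymk fell by 1.34 (SE 0.09) and 1.18 (SE 0.09). Cmpk1, the cytosolic UMP-CMP kinase, stood at 114 CPM in WT 0 h, 137 in KO 0 h, 88.9 in WT 2 h and 91.0 in KO 2 h. Ctps and Ctps2, which make the CTP that viperin uses, stood at 295 and 46.6 CPM in WT 0 h, 319 and 47.4 in KO 0 h, 264 and 26.0 in WT 2 h and 259 and 25.6 in KO 2 h.

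Another interferon-induced gene had few reads. The RNA sensor Ifih1, the 1 effector of 26 that was not tested, had 26 reads over the 8 libraries, and the related sensor Ddx58 stood at 165 CPM in KO 0 h and 192 CPM in KO 2 h.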
